A study of Mus musculus with 262 samples.

Results

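The EGF (epidermal growth factor) family ligands and their ErbB receptors were followed through mouse kidney cells and tubules: 9 genes of the 47069 listed in the TPM tables. They were chosen by name, as the ligand genes Egf, Btc, Hbegf, Tgfa and Areg and the receptor genes Egfr, Erbb2, Erbb3 and Erbb4, and all 9 were found by symbol in each deposited table. The family was proposed with results of these tables known, among them the high Btc level of principal cells, so the levels below describe the genes and the tests are not independent of that choice. EGF family ligands are made as membrane proteins whose outer part is cut off by sheddases and then binds a receptor on the same or a neighbouring cell. EGFR and ErbB4 bind ligands and signal as kinases, ErbB2 has no known direct ligand and acts as a dimer partner, and ErbB3 binds neuregulins but has little kinase activity of its own. In the kidney the distal nephron is the known main source of Egf, and EGF receptor signalling is known for its part in tubule repair and in magnesium handling.

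All samples came from kidneys of 2-month-old male mice. Single cells of C57BL/6 mice were sorted on DBA, c-Kit, both, or PNA and captured on a microfluidic chip. The authors' names split them into 87 intercalated cells of type A, 23 of type B, 74 principal, 19 proximal tubule and 32 non-epithelial cells. By the labels, PNA was used only for type B cells, 17 of the 23. Of the principal cells, 37 were sorted on DBA and 37 on DBA and c-Kit. Cell types thus differ in their sort, whose part in the levels was not tested. Sorted bulk samples were 2 c-Kit and 2 DBA samples of C57BL/6 mice, and 2 GFP-positive and 2 GFP-negative samples of the strain labelled Atp6v1b1GFP. Single tubules dissected by hand from C57BL/6 mice were 11 collecting ducts of the cortex (CCD) and 8 thick ascending limbs of the cortex (cTAL). c-Kit is a receptor used here for sorting, DBA and PNA are plant lectins in common use for labelling tubule cells, and Atp6v1b1 encodes a proton pump subunit of intercalated cells; what drives GFP is given only by the strain's name. No label names the animals behind a sample or says whether animals were pooled, so p-values measure the spread between these samples, which may be partly technical. Levels are in TPM, transcript levels scaled to gene length and to a fixed total, which set genes on a scale per length within a sample, or in counts scaled to library size (CPM) for the GFP samples.

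The labels were checked against marker genes. Slc4a1, the anion exchanger of type A cells, averaged 195.0 TPM in type A cells, and Slc26a4, that of type B cells, averaged 1201 TPM in type B cells. In type A cells the 4 type A markers summed to 0.02 to 2394 TPM. The 4 type B markers summed there to a median of 106.6 TPM and reached 1592 TPM. In type B cells the type A markers summed to a median of 0.19 TPM. Aqp2, the water channel of principal cells, was at 65.1 TPM or more in every principal cell. It was not confined to that type, since 69.8% of all single cells held it at 1 TPM or more. Type A cell 78 had 635.85 TPM of Aqp2 and proximal tubule cell 1 had 105.49 TPM. Cd74, a leukocyte gene, was at 4736 TPM or more in every non-epithelial cell. Other types held it too, and principal cell 33 had 2496 TPM. The 6 leukocyte markers summed to medians of 24.1 TPM in type A and 7.40 TPM in principal cells. Their sums reached 3075 and 2613 TPM in these types. In the non-epithelial cells all 3 endothelial and all 3 fibroblast and pericyte markers averaged below 1 TPM. Proximal tubule cells held the 6 proximal tubule markers at sums from 3.1 to 3808 TPM, with a median of 1520 TPM. The 6 principal markers summed to a median of 157.0 TPM in that type and reached 10990 TPM. Against their label, 2 type A cells held thick ascending limb genes: cell 63 had 5534 TPM of Umod and 1068 TPM of Slc12a1, and cell 78 had 15161 TPM of Umod and 1518 TPM of Slc12a1, while Slc4a1 was at 0.18 TPM in each. Umod encodes uromodulin and Slc12a1 the sodium, potassium and chloride cotransporter of that segment. Of the other listed markers of that segment, Cldn10 was at 216.4 TPM in cell 63 and 1199 TPM in cell 78. Ptger3 was at 0.04 and 242.2 TPM in them, and Cldn16 was at 0 TPM in each. All 3 type A and all 4 type B markers tested were higher in GFP-positive samples (edgeR), and all 4 of each in c-Kit samples (limma). In the tubules the summed thick ascending limb markers ran from 53.5 to 700.6 TPM in CCD and from 33613 to 53916 TPM in cTAL, and the summed principal markers from 25196 to 46522 TPM in CCD and from 43.6 to 212.7 TPM in cTAL. CCD tubule m2_CCD2 stood apart with 7621 genes at 1 TPM or more, against 10323 to 14004 in the other CCD tubules. Column names of the tubules carry prefixes from m1 to m7 whose meaning is not stated. Tubules that share a prefix may share a source. The cTAL tubules came under 6 of the prefixes, each of which also held CCD tubules. With a shared source, p-values over tubules that ignore it could be too small or too large.

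Egf and Btc showed opposite levels in the tubules, and the sequence before their starts is shown for comparison. Egf (ENSMUSG00000028017) lies on the minus strand of chromosome 3, from 129677565 to 129755316, and Btc (ENSMUSG00000082361) on the minus strand of chromosome 5, from 91357261 to 91402994, in GRCm38 with the GENCODE M21 annotation. The 250 bases before each start are from RefSeq on GRCm38.p6, printed 5′ to 3′ on the gene's strand, with CpG dinucleotides in capitals.
Egf, chr3:129755323-129755572: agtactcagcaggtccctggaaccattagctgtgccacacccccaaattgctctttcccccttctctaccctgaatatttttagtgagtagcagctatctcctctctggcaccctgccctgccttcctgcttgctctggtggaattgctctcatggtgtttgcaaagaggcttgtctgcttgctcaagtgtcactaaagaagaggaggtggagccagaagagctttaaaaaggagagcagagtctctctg
Btc, chr5:91402995-91403244: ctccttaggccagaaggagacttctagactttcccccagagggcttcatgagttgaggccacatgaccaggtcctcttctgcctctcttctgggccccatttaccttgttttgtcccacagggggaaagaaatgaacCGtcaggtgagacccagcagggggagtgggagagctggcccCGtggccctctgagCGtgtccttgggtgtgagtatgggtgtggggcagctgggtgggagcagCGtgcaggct
The Egf window holds 0 CpG and the Btc window 4, against a median of 6 over 32851 windows of the same length before annotated starts. Windows of Erbb4, Egfr, Areg and Tgfa hold 12, 11, 15 and 19 CpG. The Erbb2 window holds 16, and 14 of its bases lie in an annotated Erbb2 exon. The whole Egf window is also exon of 6330410L21Rik, an antisense transcript on the other strand. A second Egf start in the same RefSeq table lies inside the gene, and its window, with 127 bases in Egf exons, is not shown. Windows were found for 7 of the 9 members. Both strands of the windows were searched for 5 motifs, and neither the Egf nor the Btc window holds any of them. The letters TATAAA of the TATA box occur in 12.4% of all windows. Those of the GC box, GGGCGG, occur in 32.7% of them. An AP-1 site, searched as TGACTCA, is present in 4.46%. The HNF1 core letters GTTAAT are found in 6.43%. For the cyclic AMP response element, TGACGTCA, the share is 1.55%. Areg holds the TATA box letters from 31 to 26 bases before its start. Its window also holds the cyclic AMP response element from 61 to 54, the GC box from 52 to 47 and the HNF1 letters from 239 to 234. Tgfa holds the GC box from 126 to 121 and, on the other strand, from 15 to 10. Egfr holds, on the other strand, the GC box from 9 to 4 and the HNF1 letters from 214 to 209. The Erbb4 and Erbb2 windows hold 0 matches.

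Between the tubules, 5 of the 8 members tested were called at an adjusted p under 0.05 in the limma fit of log2(TPM + 1) over the 13520 genes whose mean reached 1 TPM. Of all genes tested, 18.7% were called, 5.50% higher in cTAL and 13.2% lower. Egf, Erbb2 and Erbb4 were higher in cTAL, and Btc and Tgfa were lower. Only Egf and Btc had groups that did not overlap, 2 of the 8 members where 5.51% of all genes did so. The median difference over all genes was -0.31 on the log2 scale, and that over the 8 members -0.43. Between c-Kit and DBA samples, 5 of the 8 members tested were lower in c-Kit and 0 were higher (limma, 14341 genes), where 28.1% of all genes were called lower, 16.1% higher and 44.3% in either direction. Groups did not overlap for 7 of the 8 members and for 73.9% of all genes. Here the median was -0.11 over all genes and -1.07 over the 8 members. Between GFP-positive and GFP-negative samples, edgeR called 4 of 9 members higher and 1 lower, where 15.2% of 15671 genes were called higher, 17.3% lower and 32.6% in either direction. Groups did not overlap for 6 of the 9 members and for 70.2% of all genes. The median was 0.02 over all genes and 0.34 over the 9 members. Among single cells, 6 of the 9 members had their highest mean in principal cells; of the 7 with a mean of at least 1 TPM in some type it was also 6, and of all 15403 such genes 25.3%. By the median over cells, or by the share of cells at 1 TPM or more, 3 members were highest in principal cells. For these measures the share over all genes was not taken. The 3 by median were Btc at 11.7 TPM, and Hbegf and Egf at 0.255 and 0.195 TPM, below the detection limit of 1 TPM. Single cells carried some of these means: the highest principal cell held 73.6% of the summed Egfr and 89.5% of the summed Tgfa of principal cells.

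**Figure D1:**
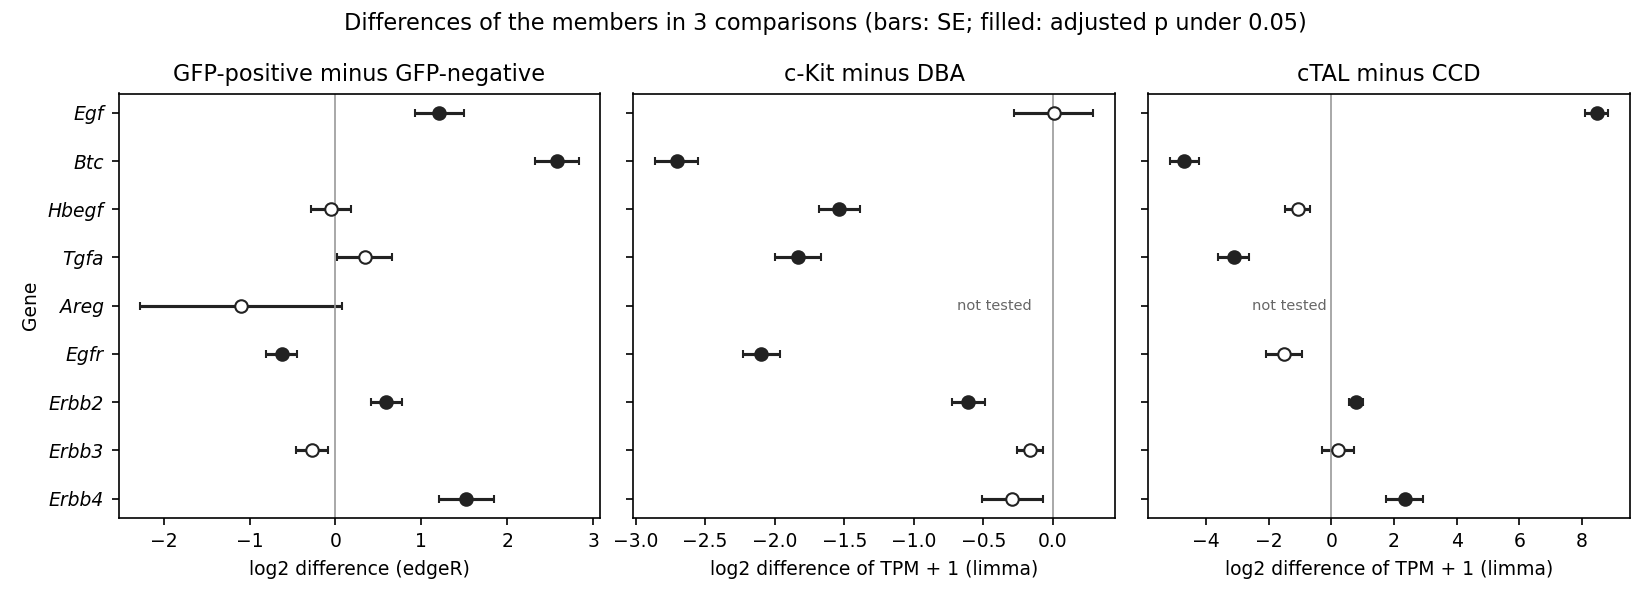
Log2 differences (x axis) of the 9 members (y axis) in the 3 comparisons, with bars for the standard error; filled points have an adjusted p under 0.05 over all genes. From the GFP panel over c-Kit against DBA to the tubules, Btc lies at 2.57, -2.71 and -4.69, and Egf at 1.21, 0.01 and 8.46; Areg was not tested in the last 2.

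Egf, the founding ligand of the family, was the most abundant member in the dissected cTAL. In the 8 cTAL tubules it ran from 5465 TPM over a median of 8454 to 11352 TPM, and in the 11 CCD tubules from 6.09 over 24.6 to 67.2 TPM. Every cTAL tubule lay above every CCD tubule. Means were 8646 ± 2101 TPM (SD, n = 8) in cTAL and 28.8 ± 19.1 TPM (SD, n = 11) in CCD, a ratio of 299.8. The log2 difference was 8.46 ± 0.36 (SE; limma, adjusted p = 1.63e-14). Exons of Egf overlap those of 2 antisense transcripts, 6330410L21Rik and Gm42697, which averaged 21.1 and 40.7 TPM in cTAL; whether strand was used in counting is not stated.

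**Figure D2:**
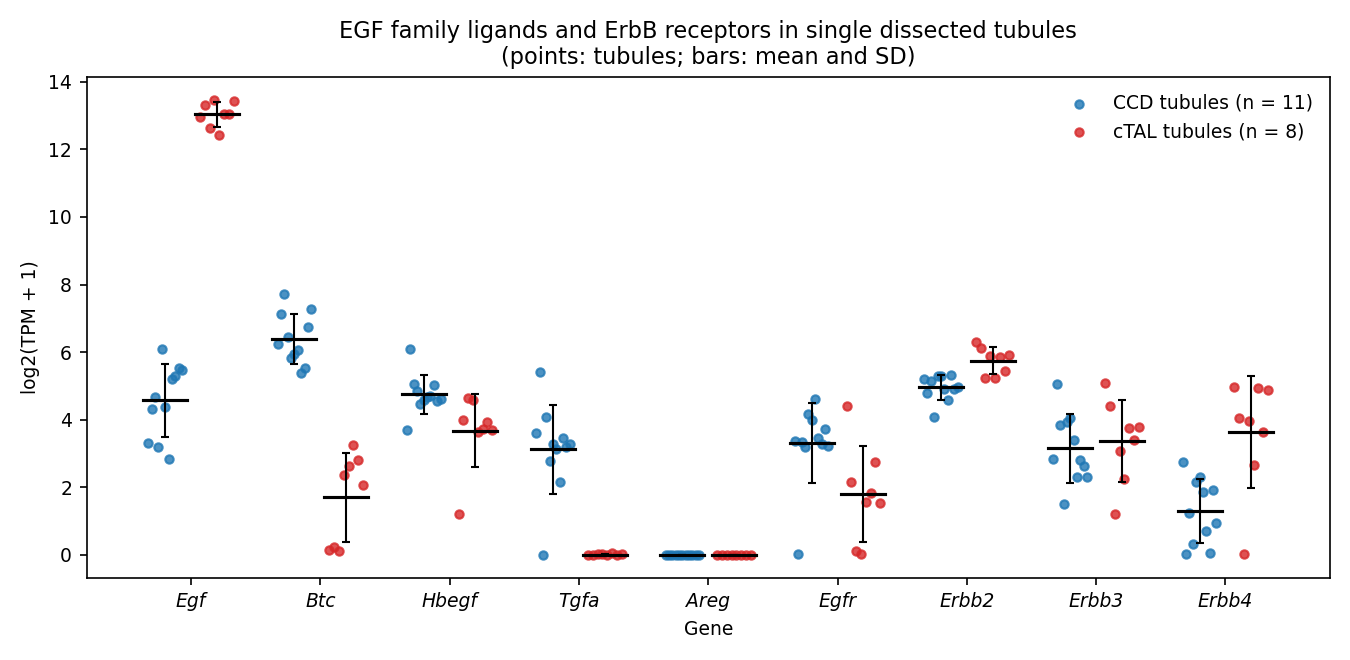
Level of each member, as log2(TPM + 1), in single CCD (blue) and cTAL (red) tubules; points are tubules, black lines the mean and SD. The 8 cTAL tubules lie between 5465 and 11352 TPM of Egf, above all 11 CCD tubules, Btc shows the reverse order without overlap, and Areg is at 0 in all 19.

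In single cells, Egf was at 1 TPM or more in 46 cells and at 10 TPM or more in 15. Its mean was 99.2 TPM in type A cells (SD over cells 656.4), 36.3 in principal, 6.19 in proximal tubule, 1.90 in type B and 0.34 in non-epithelial cells. By the share of cells at 1 TPM or more the order differed. That share was highest in type B cells, at 0.435, and next in proximal tubule cells, at 0.263. Of the principal cells, 17 of 74 reached 1 TPM. The type A mean came from few cells: the 2 that held thick ascending limb genes had 5039 and 3539 TPM of Egf, and without them the mean was 0.62 TPM. Next came principal cell 37 with 1736 TPM of Egf, which also held 3136 TPM of Umod and 1012 TPM of Aqp2. Of the 15 cells with at least 10 TPM of Egf, 11 had at least 10 TPM of Umod, 7 at least 10 TPM of Slc12a1 and 1 at least 10 TPM of Slc12a3, the cotransporter of the distal convoluted tubule. Of the other 4, principal cells 19 and 33 had 378.8 and 140.3 TPM of Egf beside 0.79 and 0 TPM of Umod. Type B cells 20 and 22 had 16.4 and 14.0 TPM of Egf beside 0.87 and 0.04 TPM of Umod. Conversely, 5 of the 19 cells with at least 100 TPM of Umod were below 1 TPM of Egf. Leaving out those 19 cells, a choice made after the values were seen, moved the mean from 99.2 to 0.64 TPM in type A cells and from 36.3 to 8.30 TPM in principal cells.

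Egf was also found in every sorted bulk sample. The c-Kit samples had 282.9 and 141.6 TPM and the DBA samples 193.8 and 205.0 TPM. These groups overlapped, and the log2 difference was 0.01 ± 0.28 (SE; limma, adjusted p = 0.987). Single samples decided its sign: without the first c-Kit sample it was -0.49 (limma, adjusted p = 0.0126), and without the second it was 0.50 (adjusted p = 0.0118). The samples held Umod in the same order, with 781.6 and 397.1 TPM in c-Kit and 492.8 and 602.2 TPM in DBA. For each 100 TPM of Umod, Egf stood at 34.0 to 39.3 TPM in these 4 samples, at 17.6 to 31.4 TPM in cTAL tubules and at 5.76 to 23.5 TPM in CCD tubules. The part of thick ascending limb RNA in the Egf levels of sorted samples and CCD was not tested.

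**Figure D3:**
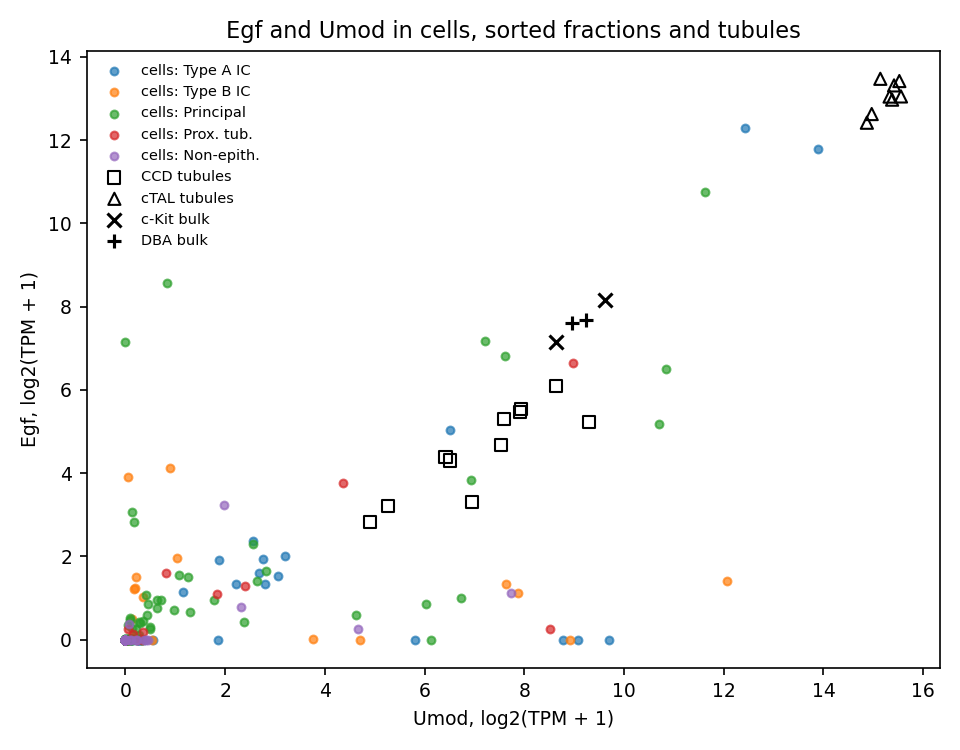
Egf against Umod, both as log2(TPM + 1), in single cells (filled points, coloured by type), 19 tubules (open squares and triangles) and 4 bulk samples (crosses). The cTAL tubules lie at the upper right, and the 2 type A cells with 5039 and 3539 TPM of Egf lie next to them.

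In the GFP samples Egf was at 1009 and 1078 CPM in GFP-negative and at 3107 and 1714 CPM in GFP-positive samples, without overlap. On the log2 scale the difference was 1.21 ± 0.29 (SE; edgeR, adjusted p = 0.0128). On the deposited RPKM values it was 0.97 and was not called (limma, adjusted p = 0.156). Among the fixed lists, 6 of 6 distal convoluted and connecting tubule markers were also higher in GFP-positive samples, with a median log2 difference of 3.89. Their summed level was 33.4 to 46.9 RPKM (reads scaled to gene length and library size) in GFP-negative and 343.3 to 596.9 RPKM in GFP-positive samples. Of the 5 thick ascending limb markers, 1 was higher, 1 was lower and 3 were not called, with sums of 2368 to 2624 and 2231 to 3891 RPKM. The part of these cell types in the Egf difference was not tested. In bulk samples, more cells of a type and more RNA per cell cannot be told apart.

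Btc encodes betacellulin, a ligand of EGFR and ErbB4, and its high level in principal cells was known when the family was chosen. It was at 1 TPM or more in 48 of 74 principal cells (64.9%, exact Clopper-Pearson 95% interval 52.9% to 75.6%; intervals on shares cover counting error only). The shares were 16 of 87 type A, 7 of 32 non-epithelial, 1 of 19 proximal tubule and 0 of 23 type B cells; for the last, a floor of 3 cells, a different rule from the exact interval, allows a share of up to 13.0%. In principal cells it ran from 0 over a median of 11.7 to 843.0 TPM, with a mean of 129.6 TPM (SD over cells 201.1). No single cell set that mean, since the highest held 8.79% of the summed Btc and the mean without it was 119.8 TPM. Mean Btc was 11.0 TPM in type A, 8.15 in non-epithelial, 3.46 in proximal tubule and 0.01 TPM in type B cells.

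Principal markers were also measured in the cells with Btc outside the principal type. The 7 non-epithelial cells with Btc had a median of 3982 TPM over the 6 principal markers summed, against 14.3 TPM in the other 25. In type A cells the medians were 413.8 TPM in the 16 with Btc and 97.5 TPM in the 71 without, but cells without Btc reached 7770 TPM and those with it 3274 TPM. The proximal tubule cell with Btc had 10532 TPM, and the 18 without had a median of 136.3 and a highest value of 10990 TPM. Among principal cells the 48 with Btc had 12259 TPM and the 26 without had 7832 TPM, at medians of 2966 and 2786 genes per cell. Whether RNA of principal cells accounts for Btc in other cells was not tested. The genes most like Btc over all cells, among 4684 found in at least 20% of cells, were Aqp2 (Spearman's rho 0.70), Apela (0.67) and Fxyd4 (0.66). Aqp2 and Fxyd4, which encodes a regulator of the sodium pump, were also on the principal marker list. Within the 74 principal cells rho was 0.27, 0.41 and 0.32; cells share a type and a depth that is not known, so these values describe likeness only.

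**Figure D4:**
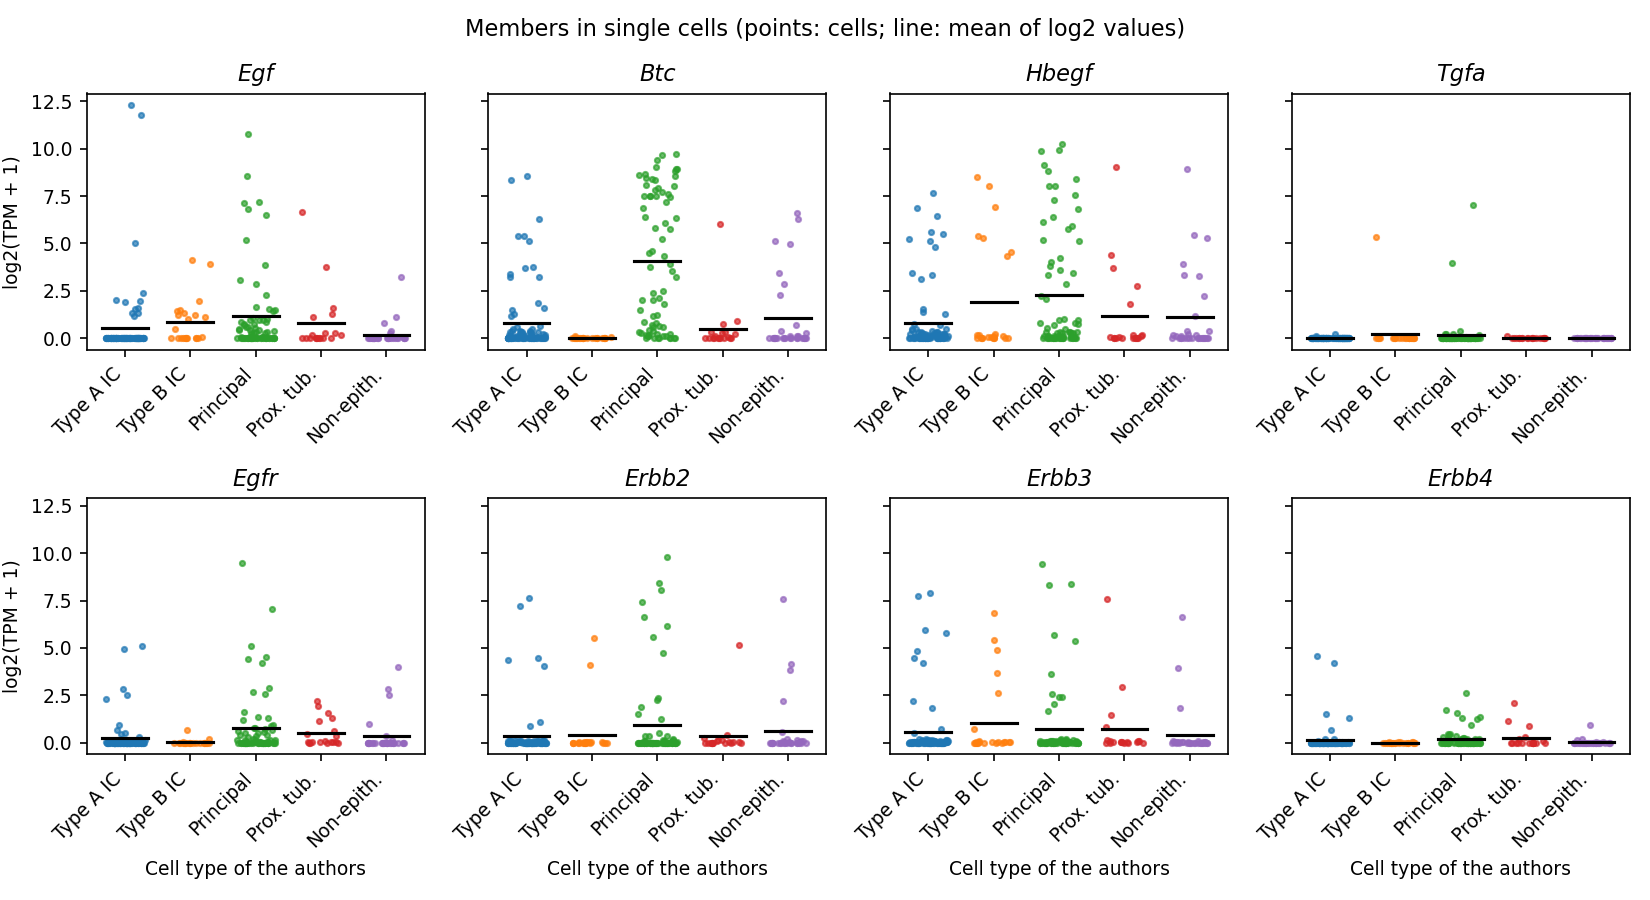
Level of 8 members in single cells of the 5 types, as log2(TPM + 1); points are cells and lines the mean of the log2 values. Btc is spread through the principal cells up to 843.0 TPM, while Tgfa is at 1 TPM or more in 3 cells of all types; Areg, at 0 in every cell, is not drawn.

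Btc was lower in cTAL than in CCD, lower in c-Kit than in DBA samples and higher in GFP-positive than in GFP-negative samples, although type A and type B markers were higher in both c-Kit and GFP-positive samples. In CCD tubules it ran from 40.6 over 74.7 to 209.7 TPM and in cTAL from 0.09 over 3.69 to 8.53 TPM. The lowest CCD tubule lay above the highest cTAL tubule. Means were 94.2 ± 53.0 TPM (SD, n = 11) and 3.43 ± 3.14 TPM (SD, n = 8), and the log2 difference was -4.69 ± 0.47 (SE; limma, adjusted p = 4.94e-08). The DBA samples had 82.7 and 79.9 TPM of Btc and the c-Kit samples 13.8 and 9.73 TPM, a log2 difference of -2.71 ± 0.15 (SE; limma, adjusted p = 3.77e-05). DBA samples held principal markers at sums of 22287 and 24841 TPM and c-Kit samples at 2519 and 3392 TPM. Leukocyte markers were higher in DBA as well, at sums of 12713 and 13236 TPM against 3843 and 4062 TPM. GFP-negative samples had 11.7 and 11.1 CPM of Btc and GFP-positive samples 54.1 and 82.3 CPM, a log2 difference of 2.57 ± 0.25 (SE; edgeR, adjusted p = 1.48e-04). All 6 principal markers were higher in GFP-positive samples too, with a median log2 difference of 2.15. On the deposited RPKM values the Btc difference was 1.58 and was not called (limma, adjusted p = 0.115).

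Hbegf encodes heparin-binding EGF-like growth factor, a ligand of EGFR and ErbB4 that is induced in stressed tubules. It was found in cells of every type, at 1 TPM or more in 27 of 74 principal, 7 of 23 type B, 5 of 19 proximal tubule, 8 of 32 non-epithelial and 14 of 87 type A cells. The exact 95% intervals of the principal and type B shares, 25.6% to 48.5% and 13.2% to 52.9%, overlapped. Means followed the order principal 79.5, type B 37.7, proximal tubule 30.2, non-epithelial 18.7 and type A 7.28 TPM. The proximal tubule and non-epithelial means rested on 1 cell each, with 532.5 and 478.5 TPM; without it they were 2.26 and 3.85 TPM. In tubules Hbegf ran from 11.9 over 24.4 to 66.8 TPM in CCD and from 1.30 over 13.2 to 24.1 TPM in cTAL, with overlap. The log2 difference was -1.07 ± 0.39 (SE) and was not called (limma, adjusted p = 0.0615). The prefix as a block gave an adjusted p of 0.0321, and leaving out m1_CCD1, m3_cTAL1 or m4_cTAL1 gave 0.0423, 0.0372 and 0.0455 (limma). Sorted on c-Kit, samples had 14.5 and 10.7 TPM against 38.2 and 37.8 TPM in DBA, a log2 difference of -1.53 ± 0.14 (SE; limma, adjusted p = 3.01e-04). By counts the GFP samples overlapped, at 92.9 and 60.9 CPM in negative and 82.7 and 65.6 CPM in positive samples (edgeR, log2 difference -0.05, standard error 0.23, adjusted p = 0.887). The deposited RPKM values of Hbegf did not overlap, and Hbegf was not called on them. They were 61.1 and 36.8 RPKM in GFP-negative and 87.5 and 69.2 RPKM in GFP-positive samples.

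Tgfa encodes transforming growth factor alpha, a ligand of EGFR. Among tubules it was a CCD transcript: 10 of 11 CCD tubules had at least 1 TPM and 0 of 8 cTAL tubules did. Values ran from 0 over 8.67 to 41.3 TPM in CCD and from 0 to 0.03 TPM in cTAL. The groups overlapped through m3_CCD1, at 0 TPM. On the log2 scale the difference was -3.11 ± 0.48 (SE; limma, adjusted p = 3.78e-05). DBA samples had 13.9 and 11.4 TPM and c-Kit samples 2.70 and 2.92 TPM, a log2 difference of -1.83 ± 0.16 (SE; limma, adjusted p = 2.40e-04). In single cells Tgfa reached 1 TPM in 2 of 74 principal cells, with 131.4 and 14.5 TPM, in 1 of 23 type B cells, with 39.9 TPM, and in 0 cells of the other types. By counts the GFP samples overlapped, at 8.88 and 11.9 CPM in negative and 10.4 and 15.9 CPM in positive samples (edgeR, log2 difference 0.34, standard error 0.32, adjusted p = 0.453). The deposited RPKM values of Tgfa did not overlap, and Tgfa was not called on them. They were 2.41 and 2.92 RPKM in GFP-negative and 6.06 and 3.22 RPKM in GFP-positive samples.

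Areg encodes amphiregulin, a ligand of EGFR. It was listed at 0 in every single cell and in all 19 tubules. By the floor of 3 cells, zeros in all cells of the 5 sorted types pooled allow up to 1.28% of cells with a listed value; this limits listed values, not cells that express the gene. The c-Kit samples had 0.03 and 0 TPM and the DBA samples 0.19 and 0.03 TPM, below the minimum for the test. GFP-negative samples had 88 and 5 reads and GFP-positive samples 10 and 29 reads, with a log2 difference of -1.10 ± 1.17 (SE; edgeR, adjusted p = 0.513).

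Egfr encodes the receptor of Egf, Tgfa and Areg. CCD tubules ran from 0.02 over 9.30 to 23.6 TPM and cTAL tubules from 0.01 over 2.27 to 20.1 TPM, with overlap. The log2 difference was -1.51 ± 0.59 (SE) and was not called (limma, adjusted p = 0.0791). A pair of tubules lay against their groups, m2_CCD2 at 0.02 TPM and m1_cTAL1 at 20.1 TPM. Without m2_CCD2 the difference was -1.84 (limma, adjusted p = 0.00757), and without m1_cTAL1 it was -1.88 (adjusted p = 0.0195). DBA samples had 27.8 and 25.3 TPM of Egfr and c-Kit samples 5.93 and 4.97 TPM, a log2 difference of -2.10 ± 0.13 (SE; limma, adjusted p = 5.96e-05). GFP-negative samples had 129.2 and 159.9 CPM and GFP-positive samples 88.0 and 99.7 CPM, without overlap. That log2 difference was -0.62 ± 0.18 (SE; edgeR, adjusted p = 0.0290). The call was lost without the second GFP-negative sample (adjusted p = 0.198) or the first GFP-positive sample (adjusted p = 0.0969, edgeR), and on the deposited RPKM values (limma, adjusted p = 0.305). All 6 proximal tubule markers, all 6 leukocyte markers and all 3 endothelial markers were lower in GFP-positive samples; their part in the Egfr difference was not tested.

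In single cells Egfr was at 1 TPM or more in 13 of 74 principal (17.6%), 5 of 19 proximal tubule (26.3%), 3 of 32 non-epithelial, 5 of 87 type A and 0 of 23 type B cells. The exact 95% intervals for principal and proximal tubule cells, 9.7% to 28.2% and 9.1% to 51.2%, overlapped. Principal cells had the highest mean, 13.2 TPM, of which 1 cell with 720.7 TPM held 73.6%; without it the mean was 3.54 TPM. In proximal tubule cells the highest value was 3.62 TPM.

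Erbb2, the dimer partner without a direct ligand, was at 16.0 TPM or more in every tubule. Its 11 CCD tubules ran from 16.0 over 30.3 to 39.2 TPM and its 8 cTAL tubules from 36.5 over 57.5 to 77.3 TPM, with an overlap between the highest CCD and the lowest cTAL tubules. On the log2 scale the difference was 0.79 ± 0.23 (SE; limma, adjusted p = 0.0175). It was not called on means per prefix and segment, with an adjusted p of 0.0523, or 0.158 with the prefix as a block (limma). DBA samples had 49.8 and 51.8 TPM and c-Kit samples 37.1 and 29.3 TPM, a log2 difference of -0.61 ± 0.12 (SE; limma, adjusted p = 0.00694). Leaving out the first or the second DBA sample gave adjusted p-values of 0.0724 and 0.0935 (limma). GFP-negative samples had 51.6 and 58.8 CPM and GFP-positive samples 77.1 and 89.1 CPM, without overlap (edgeR, log2 difference 0.59, standard error 0.18, adjusted p = 0.0340). Leaving out any of the 4 samples ended that call, with adjusted p-values from 0.0527 to 0.193 (edgeR), and so did the deposited RPKM values (limma, adjusted p = 0.462). Erbb2 was at 1 TPM or more in 13 of 74 principal, 4 of 32 non-epithelial, 6 of 87 type A, 2 of 23 type B and 1 of 19 proximal tubule cells. Its mean was highest in principal cells, 26.2 TPM, and 14.2 TPM without the highest cell, which held 904.8 TPM. The next mean, 6.98 TPM in non-epithelial cells, was 1.11 TPM without 1 cell with 188.9 TPM.

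Erbb3, the neuregulin receptor with little kinase activity, did not pass the test in any of the 3 comparisons. CCD tubules ran from 1.84 over 6.10 to 32.2 TPM and cTAL tubules from 1.31 over 11.1 to 32.9 TPM (limma, log2 difference 0.22, standard error 0.52, adjusted p = 0.816). The highest CCD value was that of m2_CCD2, the CCD tubule with the fewest genes, and the next CCD tubule had 15.5 TPM. In cTAL the highest was m1_cTAL1, and the next tubule had 20.4 TPM. The 2 segments thus overlapped, with the top of each range set by 1 tubule. The c-Kit samples had 22.3 and 23.3 TPM and the DBA samples 26.4 and 24.8 TPM (limma, log2 difference -0.16, standard error 0.09, adjusted p = 0.206). GFP-negative samples had 60.4 and 56.1 CPM and GFP-positive samples 52.4 and 43.7 CPM (edgeR, log2 difference -0.28, standard error 0.19, adjusted p = 0.291). In single cells it was found at 1 TPM or more in 5 of 23 type B, 3 of 19 proximal tubule, 11 of 74 principal, 9 of 87 type A and 3 of 32 non-epithelial cells. Mean levels ran from 19.7 TPM in principal to 3.59 TPM in non-epithelial cells, and these were 10.6 and 0.57 TPM without the highest cell of each type.

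Erbb4, a receptor of neuregulins that also binds betacellulin and heparin-binding EGF, had the largest log2 difference between segments among the 4 receptors. In cTAL tubules it ran from 0.01 over 15.1 to 30.4 TPM and in CCD tubules from 0.01 over 1.37 to 5.71 TPM. Of the 8 cTAL tubules, m3_cTAL1 lay at 0.01 TPM and m6_cTAL1 at 5.26 TPM, and the other 6 lay above every CCD tubule. The log2 difference was 2.34 ± 0.59 (SE; limma, adjusted p = 0.00613). It was not called on means per prefix and segment, with an adjusted p of 0.0655, or 0.0852 with the prefix as a block, nor with a pseudocount of 0.1 (adjusted p = 0.0526, limma). GFP-negative samples had 35.4 and 39.2 CPM and GFP-positive samples 146.0 and 68.3 CPM, without overlap (edgeR, log2 difference 1.52, standard error 0.32, adjusted p = 0.00712). Erbb4 was the member called on the deposited RPKM values, where levels were 9.09 and 8.87 RPKM in GFP-negative and 32.3 and 22.1 RPKM in GFP-positive samples. The c-Kit samples had 2.53 and 2.01 TPM and the DBA samples 2.58 and 3.44 TPM (limma, log2 difference -0.29, standard error 0.22, adjusted p = 0.319). Single cells held little Erbb4: 6 of 74 principal, 4 of 87 type A, 2 of 19 proximal tubule and 0 of the type B and non-epithelial cells reached 1 TPM. The highest value, 22.95 TPM, was in type A cell 63, which held thick ascending limb genes.

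An exact permutation test of the mean log2(TPM + 1) over tubules, two-sided and unadjusted over the 8 members it was run on, gave p = 2.65e-05 for Egf and Btc, the smallest that 75582 assignments allow. It gave 2.38e-04 for Tgfa, 3.97e-04 for Erbb2, 0.00238 for Erbb4, 0.00381 for Hbegf, 0.0253 for Egfr and 0.669 for Erbb3. By mean level the order in CCD was Btc 94.2, Erbb2 30.9, Egf 28.8, Hbegf 28.2, Egfr and Tgfa 11.0 each, Erbb3 10.2 and Erbb4 1.97 TPM. Erbb2, Egf and Hbegf lay within 1 SD of each other there, as did Egfr, Tgfa and Erbb3. In cTAL the order was Egf 8646, Erbb2 54.5, Erbb4 16.9, Hbegf 14.2, Erbb3 12.6, Egfr 4.48, Btc 3.43 and Tgfa 0.01 TPM, and the levels from Erbb4 to Erbb3 lay within 1 SD of each other.

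Of the other 6 ligand genes of the family, Nrg1 and Nrg4 passed the minimum for the test in both sorted comparisons and Nrg1 in the tubules. Ereg, which encodes epiregulin, was at 0 in every single cell and in the c-Kit and DBA samples, had 2 to 8 reads per GFP sample and reached at most 0.21 TPM in a tubule. Epgn (epigen) reached at most 0.07 TPM in a tubule and Nrg3 at most 1.16 TPM. Nrg2 reached 0.19 TPM in a tubule and averaged 1.14 TPM in DBA and 0.63 TPM in c-Kit samples. Nrg1, which encodes neuregulin 1, a ligand of ErbB3 and ErbB4, was lower in GFP-positive samples, at 6.88 and 5.20 CPM against 21.5 and 18.5 CPM (edgeR, log2 difference -1.73, standard error 0.28, adjusted p = 0.00211). It was also lower in c-Kit samples, at 1.21 and 1.15 TPM against 4.02 and 4.11 TPM in DBA (limma, log2 difference -1.22, standard error 0.19, adjusted p = 0.00293). Tubule values of Nrg1 were scattered, from 0 to 29.95 TPM in CCD and from 0 to 14.1 TPM in cTAL, and were not called (limma, adjusted p = 0.332). In single cells Nrg1 was highest in 1 proximal tubule cell with 624.2 TPM. Nrg4 differed in neither sorted comparison at the threshold (adjusted p = 0.383 for GFP in edgeR and 0.616 for c-Kit in limma).

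Some cells of every type held both a ligand and a receptor. Whether this happened more often than their separate counts would give was not tested. Of 74 principal cells, 62 held at least 1 ligand among the members at 1 TPM or more, 33 held at least 1 receptor and 28 held both. Of the 48 with Btc, 24 held a receptor and 13 held Egfr or Erbb4, the receptors that bind betacellulin. In type A cells 34 of 87 held a ligand, 19 a receptor and 9 both, and in type B cells 16 of 23 held a ligand, 7 a receptor and 7 both. In proximal tubule cells 10 of 19 held a ligand, 11 a receptor and 6 both, and in non-epithelial cells these were 13, 9 and 4 of 32. Values of 0 make up 87.0% of the single-cell table and its depth is not known, so a member listed at 0 in a cell is not shown to be absent there.

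Genes that release the ligands or carry and limit the receptor signal were followed as fixed lists. Of the 5 shedding genes, which hold the proteases Adam10 and Adam17, the regulators Rhbdf1 and Rhbdf2 and the inhibitor Timp3, all 5 were lower in c-Kit samples, where 28.1% of all genes were. In GFP-positive samples 2 were lower and 0 higher, where 17.3% of all genes were lower, and in cTAL 1 was lower and 0 higher, where 13.2% were lower. Rhbdf1 fell from 60.6 to 29.1 TPM in c-Kit against DBA and from 14.2 to 6.46 CPM in GFP-positive samples. The Rhbdf1 call in GFP samples was lost without the first or the second GFP-positive sample (edgeR, adjusted p = 0.0577 and 0.0653). Timp3 fell from 613.9 to 342.1 TPM and from 2766 to 1309 CPM. Among 20 transducers, which link receptors to the MAP kinase, PI3 kinase and STAT pathways, 6 were lower and 3 higher in c-Kit, 3 were higher and 0 lower in GFP-positive samples, and 1 was lower and 0 higher in cTAL. Over all genes 44.3%, 32.6% and 18.7% were called in these comparisons, so the share of transducers called was near that of all genes in c-Kit and below it in the other comparisons. Stat3 rose from 75.4 to 211.6 CPM and Pik3r1 from 148.2 to 338.5 CPM in GFP-positive samples (edgeR, log2 differences 1.49 and 1.19, adjusted p = 4.12e-04 and 0.00201). In c-Kit samples Gab1 fell from 30.1 to 16.1 TPM and Pik3r1 from 25.5 to 14.8 TPM, while Akt2 rose from 37.7 to 59.8 TPM and Hras from 149.0 to 189.1 TPM. Without the second DBA sample Hras and Pik3r1 were not called (limma, adjusted p = 0.0601 and 0.0506).

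Feedback genes, which dampen receptor signals, were called in both directions in the GFP and tubule comparisons and only lower in c-Kit samples. Of 15, 7 were lower and 0 higher in c-Kit, and 6 were lower and 2 higher in GFP-positive samples. In cTAL, 14 were tested, of which 2 were higher and 1 lower. Calls over all genes were 44.3% in c-Kit (28.1% lower), 32.6% in GFP (17.3% lower) and 18.7% in cTAL. The share of feedback genes called was thus near that of all genes in c-Kit and in cTAL. Dusp6, a phosphatase of ERK kinases, averaged 93.4 TPM in cTAL and 4.69 TPM in CCD, a log2 difference of 4.28 ± 0.46 (SE; limma, adjusted p = 2.09e-07). In c-Kit samples Dusp6 fell from 69.2 to 24.0 TPM (limma, log2 difference -1.49, adjusted p = 3.04e-05) and Spred1, an inhibitor of the MAP kinase pathway, from 21.6 to 9.80 TPM. Errfi1, an EGFR inhibitor, fell from 1574 to 315.7 CPM in GFP-positive samples (edgeR, log2 difference -2.32, adjusted p = 1.16e-04), and Spry4 from 27.5 to 5.13 CPM. Spry1 rose from 11.3 to 21.1 CPM there and Cbl, a ubiquitin ligase of EGFR, from 69.2 to 110.3 CPM. Neither was called without the second GFP-negative sample (edgeR, adjusted p = 0.160 for Spry1 and 0.102 for Cbl) or without the first GFP-positive sample (0.224 and 0.0568).

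Of the early response genes, which growth factors and many other signals induce, 8 were tested between c-Kit and DBA and all 8 were lower in c-Kit, where 28.1% of all genes were lower and 44.3% were called in either direction. Their median log2 difference was -1.54, against -0.11 over all genes. All 6 leukocyte, all 6 principal and all 6 proximal tubule markers were lower in c-Kit too, with median log2 differences of -2.15, -2.87 and -1.08. Leukocyte marker sums were 3843 to 4062 TPM in c-Kit against 12713 to 13236 TPM in DBA. All 4 type A, all 4 type B and all 4 shared intercalated markers were higher in c-Kit. The part of these cell types in the early response difference was not tested. Egr1 fell from 1339 to 281.0 TPM and Ccnd1 from 64.2 to 16.0 TPM in c-Kit samples. In GFP-positive samples 3 of 9 were higher and 2 lower, where 15.2% and 17.3% of all genes were: Egr1 rose from 662.4 to 1213 CPM and Ier3 from 58.0 to 105.5 CPM, and Myc fell from 26.7 to 11.8 CPM. Without the second GFP-negative sample Egr1 and Ier3 were not called (edgeR, adjusted p = 0.0628 and 0.104), nor without the second GFP-positive sample (0.0621 and 0.0714). On the deposited RPKM values Rhbdf1, Spry1, Cbl, Spry4, Egr1, Myc and Nrg1 were not called (limma). In cTAL 3 of 8 were higher and 2 lower, where 5.50% and 13.2% of all genes were, and Ier2 fell from 79.0 TPM in CCD to 23.1 TPM (limma, adjusted p = 0.00669).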

How the data were processed

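RNA was measured in single cells of 5 types, 8 sorted bulk samples and 19 tubules; no reads were processed here. The authors deposited TPM values for cells, c-Kit and DBA samples and tubules (the tubule unit was read from column sums), and HTSeq read counts and RPKM values on the RefSeq annotation of mm10 for the GFP samples, per the file headers. The submitters' processing notes name STAR 2.5.1b, RSEM 1.2.31, Seurat and GRCm38.p5, with no role given. Strand use in counting: not given in the sources used here. Reads in genes numbered 35530885 to 40815091 per GFP sample; reads assigned to no gene, 66.7% to 72.8% of each sample's listed reads, were left out. TPM keeps no depth. Of the sample columns, 0 were left unused.

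Samples were grouped by title. Counts were compared with edgeR 4.0.16 (TMM, filterByExpr, quasi-likelihood test), and TPM with limma 3.58.1 (variance trend) on log2(TPM + 1) for genes averaging 1 TPM or more, in R 4.3.3. Fold changes on that scale understate changes of low genes. Adjustment (Benjamini-Hochberg) ran over all genes tested, with calls under 0.05. The fits were also run on simulated data with a fixed spread and changes only in genes of higher mean. Those runs do not test the fits at low levels or at the spread of these samples. Single cells were described without tests, since each type counts as 1 sample, and exact intervals came from scipy 1.17.1. All cells were kept and no doublet caller was run, since the values are not molecule counts; 0 cell columns were identical. Members and gene lists were chosen with earlier results of these data known. Named genes were all members, the 6 other family ligands, and per list, comparison and direction up to 2 called genes with the largest difference, groups without overlap and a mean of at least 10. Alternatives were DESeq2 1.42.0, other size factors, filters, pseudocounts and normalizations, RPKM, blocks and leaving out each sample.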

Additional observations from a re-analysis of the deposited data

Results flagged for a closer look

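A search for single tubules far from the rest of their group was made for the 8 members with any signal in the 8 cTAL tubules, by the gap to the nearest tubule as a share of the group's range on the log2 scale; chance alone sets apart about 1 in 20 groups. It marked 3 tubules. Hbegf was at 1.30 TPM in m1_cTAL1, where the next lowest tubule had 11.5 TPM. Erbb4 was at 0.01 TPM in m3_cTAL1, where the next lowest had 5.26 TPM; this tubule had the fewest genes at 1 TPM or more, 8094, against 9078 to 12385 in the other cTAL tubules. Tgfa was at 0.03 TPM in m6_cTAL2, where the next highest had 0.01 TPM, all of them levels near 0.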

How the results depend on the processing

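Of the 4 counts reported, the number of members called in the GFP comparison was 5 in edgeR and fell to 1 on RPKM values, also with the experiment named in the column header as a replicate block, where genes called went from 5101 to 1639 and 2157. In the GFP counts, the replicate block gave 5 members and 5897 genes. Leaving out 1 sample, with the lone sample left in its group assumed to vary like the others, gave 3 to 4 members (3 without the second GFP-negative or the first GFP-positive sample) and 3616 to 4211 genes. Between c-Kit and DBA, the block gave 5 members and 6271 genes, and leaving out 1 sample gave 4 to 6 members and 3458 to 5701 genes against 6348; the lowest counts were without a DBA sample (3600 without the first, 3458 without the second), and Egf reversed to -0.49 without the first c-Kit sample and was 0.50 without the second. Replicate numbers are not stated to mark shared animals or days, and same-numbered samples deviated together with correlations of 0.14 (GFP) and 0.03 (c-Kit and DBA). Between tubules, 5 members were called; 3 were called at a mean of at least 10 TPM, where fewer genes were tested, and 3 on means per prefix, without and with the prefix as a replicate block, which left 1823 and 1239 genes against 2526. The block over single tubules gave 6 members and 2588 genes. Correlations within a prefix ran from 0.02 to 0.16. Sample weights gave 7 members and 4401 genes. Leaving out 1 tubule gave 5 to 6 members and 2239 to 3078 genes. Quantile normalization moved the median of all genes from -0.31 to 0.03 and the split from 744 higher and 1782 lower to 1244 and 1221, with 5 members called. Members with their highest mean in principal cells numbered 6, and 3 by the median or by the share of cells at 1 TPM or more. The prefix, RPKM block and Umod alternatives were chosen after seeing the data. Except where stated, the cause of these shifts was not tested. With 2 samples a group, depth unknown for TPM and most cells at 0, differences smaller than these spreads were not detectable.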
